A study of Mus musculus with 12 samples.

Results

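The proteins that set how stable a microtubule is were followed across Rd76-9 tumors through the mRNA of 10 genes: the destabilizer *Stmn1*, the lattice-binding proteins *Map4* and *Map1b*, the tip trackers *Mapre1* and *Mapre2*, the growth-promoting proteins *Ckap5*, *Clasp1* and *Clasp2*, and the depolymerizing kinesins *Kif2a* and *Kif2c*. The genes were chosen by their known role, and they are 10 of the 38894 genes with a RefSeq symbol in the data. All 10 were abundant enough to be tested, among 17599 genes tested in all. Each gene's value is the sum over its transcripts. RNA was sequenced from 12 bulk tumors, 3 in each of 4 groups, grown from Rd76-9, a mouse embryonal rhabdomyosarcoma line first obtained from a tumor that methylcholanthrene had induced. The cells were injected under the skin of the flank of wild-type C57/Bl6J mice aged 8 to 12 weeks, treatment began on day 7 and tumors were collected on day 16. The treatments were vehicle (saline and empty nanoparticles; tumors m1, m2 and m3), vincristine (VCR) at 0.25 mg/kg every 7 days (m4, m5 and m6), the FOXM1 inhibitor RCM1 in folic acid nanoparticles (RCM1-NPFA) at 8 µg every 48 hours (m7, m8 and m9), and both drugs (m10, m11 and m12). The treatment label of the vehicle group also names RCM1, and these tumors were assigned by their titles. All tumors derive from 1 cell line in hosts with intact stroma and immune cells.

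Microtubules are hollow tubes of tubulin that grow and shrink at their plus ends. End-binding proteins ride on the growing tip and recruit other factors to it, TOG-domain proteins such as those of *Ckap5* and the CLASPs add tubulin or slow shrinkage, structural MAPs brace the lattice, stathmin holds free tubulin dimers, and kinesin-13 motors peel tubulin from the ends. VCR binds tubulin and blocks its assembly, so that dividing cells fail to build a working spindle. FOXM1, the target of RCM1, is a transcription factor that drives genes of mitosis.

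Depth was even, with 29342195 to 32108055 estimated counts per tumor. Markers of the rhabdomyosarcoma lineage, *Myod1* and *Myog*, were at or near 0 in the vehicle-treated tumors, at 0 to 0.0617 CPM. CPM are counts scaled to each tumor's library size by TMM. In m4, m5 and m6, *Myod1* was at 2.38, 2.38 and 1.2 CPM and *Myog* at 2.16, 1.65 and 1.43 CPM. In m7, m8 and m9, *Myod1* was at 0.0331, 0 and 2.3 CPM, and *Myog* was also highest in m9. After the combination *Myod1* was at 0.448 to 0.711 CPM and *Myog* at 0.487 to 1.63 CPM. *Myf5*, a myogenic regulator of early myoblasts, was at 48.8 to 69.8 CPM across the 12 tumors. The sum of 10 myoblast genes was 191 to 271 CPM after vehicle. Genes of adult skeletal muscle fibers varied most: the sum of 22 such genes was 314 to 460 CPM after vehicle, 2299 to 14828 after VCR, 420 to 22134 after RCM1-NPFA and 849 to 5757 after the combination, and was highest in m5 and m9. The sum of 14 genes of cycling cells was 2730 to 3566 CPM after vehicle, 2988 to 3198 after VCR, 2766 to 3605 after RCM1-NPFA and 2968 to 3308 after the combination. In bulk tumors, fewer cells of a type and less RNA per cell cannot be told apart.

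In GRCm38, *Stmn1* lay at chr4:134468320-134473843 (+), *Kif2c* at chr4:117159633-117182624 (-), *Map4* at chr9:109929841-110083954 (+), *Clasp2* at chr9:113740077-113919697 (+), *Map1b* at chr13:99421464-99516602 (-), *Kif2a* at chr13:106958996-107022355 (-), *Mapre1* at chr2:153741287-153773317 (+), *Ckap5* at chr2:91526747-91620679 (+) and *Clasp1* at chr1:118389058-118609462 (+). Only *Kif2a* shared exon sequence with a gene on the other strand, *Dimt1*, so that reads of that pair may not be told apart.

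RefSeq start-site windows of GRCm38.p6 were found for 7 of the 10 genes. Windows are shown for 4 genes whose window began within 62 bases of the start that GENCODE gives the gene's leading transcript, namely *Map1b* and *Kif2a*, whose levels moved together across tumors (described further on), *Mapre1*, which has a single transcript, and *Clasp2*, whose transcript mix shifted between tumors. Each runs 5′ to 3′ over the 250 bases before the start site. Capitals mark GC boxes (GGGCGG, or CCGCCC on the other strand) and CCAAT boxes (CCAAT, or ATTGG on the other strand), and matches that overlap are merged into 1 run of capitals. The windows are chr13:99516603-99516852 (-) for *Map1b*, chr13:107022115-107022364 (-) for *Kif2a*, chr2:153741037-153741286 (+) for *Mapre1* and chr9:113812336-113812585 (+) for *Clasp2*.
Map1b: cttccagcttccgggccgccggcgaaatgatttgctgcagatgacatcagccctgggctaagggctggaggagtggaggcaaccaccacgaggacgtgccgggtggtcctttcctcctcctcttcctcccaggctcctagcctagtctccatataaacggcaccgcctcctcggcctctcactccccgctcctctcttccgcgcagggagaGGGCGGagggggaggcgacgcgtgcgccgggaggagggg
Kif2a: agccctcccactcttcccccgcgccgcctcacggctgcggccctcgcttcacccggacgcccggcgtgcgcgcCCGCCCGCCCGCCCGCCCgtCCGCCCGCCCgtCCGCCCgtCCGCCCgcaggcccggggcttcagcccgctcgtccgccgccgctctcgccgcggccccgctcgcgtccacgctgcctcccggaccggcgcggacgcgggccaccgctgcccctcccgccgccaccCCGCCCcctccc
Mapre1: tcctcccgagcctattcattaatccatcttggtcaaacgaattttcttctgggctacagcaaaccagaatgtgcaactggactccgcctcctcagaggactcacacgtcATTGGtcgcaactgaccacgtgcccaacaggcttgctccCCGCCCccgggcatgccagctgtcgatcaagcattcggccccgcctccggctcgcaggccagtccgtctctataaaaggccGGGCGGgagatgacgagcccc
Clasp2: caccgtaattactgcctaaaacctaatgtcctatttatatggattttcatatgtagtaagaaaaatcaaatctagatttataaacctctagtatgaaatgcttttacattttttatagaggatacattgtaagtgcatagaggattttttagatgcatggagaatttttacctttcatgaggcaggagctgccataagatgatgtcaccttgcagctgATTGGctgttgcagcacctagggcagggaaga

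The *Kif2a* window held 9 GC boxes and was 84.8% G and C, the *Map1b* window held 1 and was 66.4% G and C, and the *Mapre1* window held 2 together with 1 CCAAT box. The *Clasp2* window was 36% G and C and held 1 CCAAT box and no GC box. GC boxes were present in 32.7% and CCAAT boxes in 33.8% of all 32851 windows of the same length. The E2F letters TTTGGCG and TTTCCCG, the CHR letters TTTGAA and TTCGAA and the forkhead letters TAAACA were searched on both strands and were not found in these 4 windows. The windows of *Ckap5* and *Kif2c* began 19560 and 3867 bases from the start of their leading transcripts and were not read further.

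Levels of the genes were compared in TPM, an abundance scaled to the library and to transcript length. *Stmn1*, whose product stathmin sequesters tubulin, was by far the most abundant at 344 ± 27.8 TPM (SD, n = 12), and 97.9% of the tested genes had a lower mean. *Map4*, the main structural MAP outside neurons, followed at 85.7 ± 6.88 TPM. *Kif2c*, which encodes the mitotic kinesin-13 MCAK, was at 40.7 ± 3.75 TPM, *Ckap5*, which encodes the microtubule polymerase chTOG, at 38.3 ± 5.67 TPM, and *Mapre1*, which encodes the end-binding protein EB1, at 36.9 ± 3.04 TPM. *Ckap5* was not apart from the other two, since *Kif2c* was above it in 9 of 12 tumors and it was above *Mapre1* in 6 of 12, whereas *Kif2c* was above *Mapre1* in 12 of 12.

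The other kinesin-13, *Kif2a*, was at 24.0 ± 2.51 TPM, below *Mapre1* in 12 of 12 tumors. *Mapre2*, the gene of EB2, was at 17.2 ± 1.31 TPM, *Clasp1*, which encodes a rescue factor at the plus end, at 15.0 ± 1.51 TPM and *Map1b*, best known as a MAP of growing axons, at 14.4 ± 2.11 TPM. Neighbors among these 3 were not apart either, with *Mapre2* above *Clasp1* in 10 of 12 tumors and *Clasp1* above *Map1b* in 9 of 12. *Clasp2* was the lowest of the 10 at 9.48 ± 1.16 TPM and below *Map1b* in 12 of 12 tumors. Each paralog pair kept one order in all 12 tumors, with *Kif2c* above *Kif2a*, *Mapre1* above *Mapre2* and *Clasp1* above *Clasp2*.

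**Figure D1:**
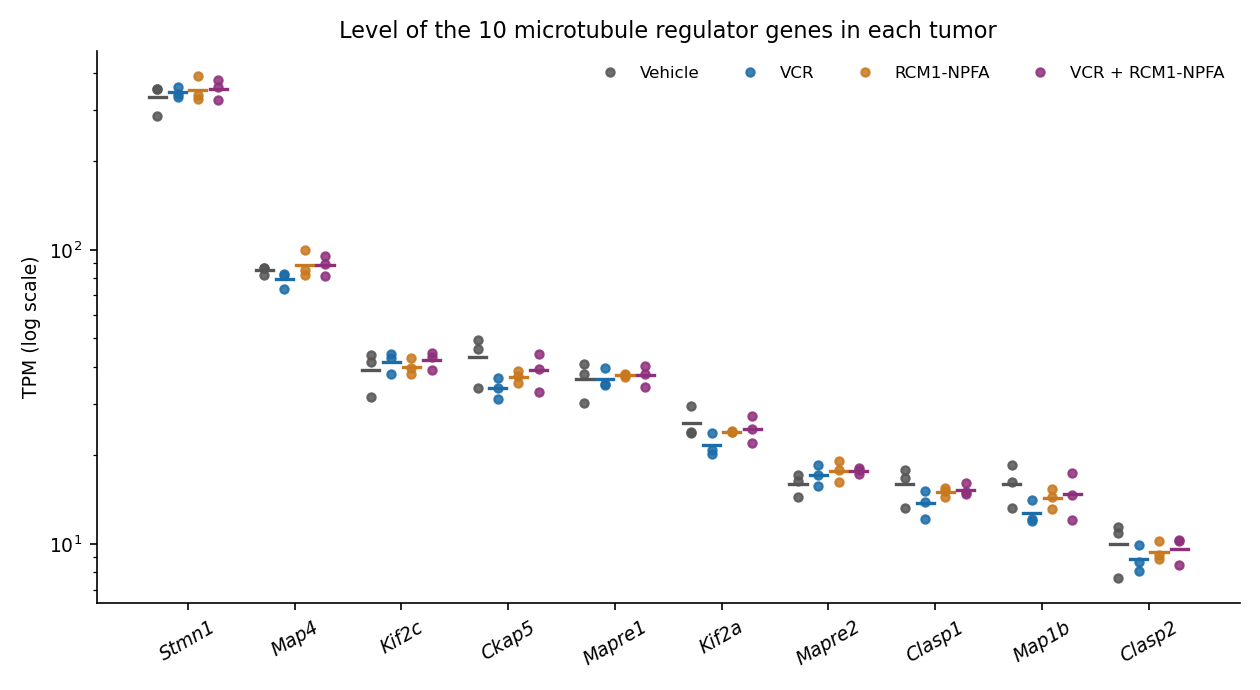
TPM (log axis) of the 10 genes in each of the 12 tumors, with points for tumors and short bars for the means of the 3 tumors of a group. *Stmn1* lay between 285 and 391 TPM and *Clasp2* between 7.67 and 11.4 TPM, and *Stmn1* lay above *Map4* in 12 of 12 tumors.

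The 10 genes varied between tumors about as much as other genes of like level. Their coefficients of variation over the 12 tumors, in CPM, ran from 5.40% for *Mapre1* to 11.6% for *Clasp2*, with a median of 8.45%. The median was 14.3% over all tested genes, and 8.94% over the 5658 tested genes with a mean between those of the lowest and the highest of the 10. Vehicle-treated tumor m3 was the lowest of the 12 for *Stmn1*, *Mapre1*, *Mapre2* and *Kif2c*.

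VCR was compared with vehicle first, because the drug acts on the polymer that these proteins regulate. None of the 10 genes passed the threshold (edgeR quasi-likelihood test with Benjamini-Hochberg adjustment over all genes, adjusted p under 0.1; 0 of 10), against 5.54% of all tested genes (975 of 17599). At an unadjusted p under 0.05 there were 3, *Ckap5*, *Map1b* and *Kif2a*, against 22.1% of all tested genes. DESeq2 on all 12 tumors called 1, *Ckap5*, against 14.3% of the genes it tested, and limma-voom called 0 against 3.86%. Log2 fold changes were above 0 for 4 genes and below 0 for 6, with a median of -0.09 beside a median of 0.0017 over all tested genes.

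*Ckap5* had the lowest log2 fold change of the 10 after VCR. It was at 181, 193 and 148 CPM in m1, m2 and m3 and at 132, 150 and 148 CPM in m4, m5 and m6. The groups overlapped through m3, which lay at the level of the VCR-treated tumors. The log2 fold change was -0.28 ± 0.11 (SE), with a 95% interval of -0.51 to -0.04 and an edgeR adjusted p of 0.174. It passed the threshold with the DESeq2 test (log2 fold change -0.29, adjusted p = 0.0992) and in edgeR without vehicle-treated tumor m3 (-0.38, adjusted p = 0.0739, where 7.13% of all tested genes were called). The log2 fold change of *Ckap5* lay between -0.38 and -0.17 over all alternatives.

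*Map1b* was the only gene whose VCR-treated tumors all lay on one side of the vehicle-treated tumors. It was at 115, 130 and 105 CPM in m1, m2 and m3 and at 91.3, 97.4 and 103 CPM in m4, m5 and m6. The exact permutation test gave p = 0.1 (two-sided), the smallest that 3 against 3 tumors allow. Groups did not overlap for 24.4% of all tested genes, and for 10.9% they did so with VCR lower, so that 1 of 10 is not above that share. The log2 fold change was -0.26 ± 0.11 (SE), with a 95% interval of -0.50 to -0.02 and an edgeR adjusted p of 0.189. *Map1b* is abundant in neurons. The sum of 7 neuronal marker genes, of which 4 had enough counts to be tested, was at most 4.96 CPM in each of the 12 tumors. That of 7 Schwann cell genes, of which 5 were tested, was 13.6 to 25.3 CPM. The part of nerve cells in the levels of *Map1b* was not tested.

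*Kif2a* was at 51.5, 64.0 and 58.7 CPM in m1, m2 and m3 and at 48.3, 51.5 and 53.4 CPM in m4, m5 and m6. The groups overlapped through m1 and m6. The log2 fold change was -0.19 ± 0.08 (SE) and the edgeR adjusted p was 0.220. The mitotic kinesin-13 *Kif2c* had the opposite sign, at 66.6, 70.5 and 56.6 CPM after vehicle and 66.2, 80.6 and 71.0 CPM after VCR, with a log2 fold change of 0.17 ± 0.10 (SE) and an adjusted p of 0.330. Whether the kinesin-13 genes differed from each other in their response was not tested. In TPM, which also corrects for transcript lengths, the groups of *Kif2a* were narrowly apart (23.9 TPM at the lowest after vehicle and 23.8 at the highest after VCR), and those of *Map1b* overlapped (13.3 TPM in m3 and 14.1 in m6). In TPM *Kif2a* was thus the 1 gene of 10 without overlap, against 21.8% of all tested genes.

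The remaining genes had adjusted p-values of 0.302 to 0.854 in edgeR. *Stmn1* was at 189, 192 and 170 CPM after vehicle and at 196, 223 and 189 CPM after VCR, with a log2 fold change of 0.14 ± 0.10 (SE). The end-binding genes *Mapre2* and *Mapre1* had log2 fold changes of 0.17 and 0.07, and *Clasp2* and *Clasp1* of -0.18 and -0.15. *Map4*, at 291, 289 and 306 CPM after vehicle and 268, 314 and 284 CPM after VCR, had a log2 fold change of -0.03. The 95% intervals of the 10 genes together ran from a fold of 0.700 to a fold of 1.31, and larger changes in either direction lay outside them.

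**Figure D2:**
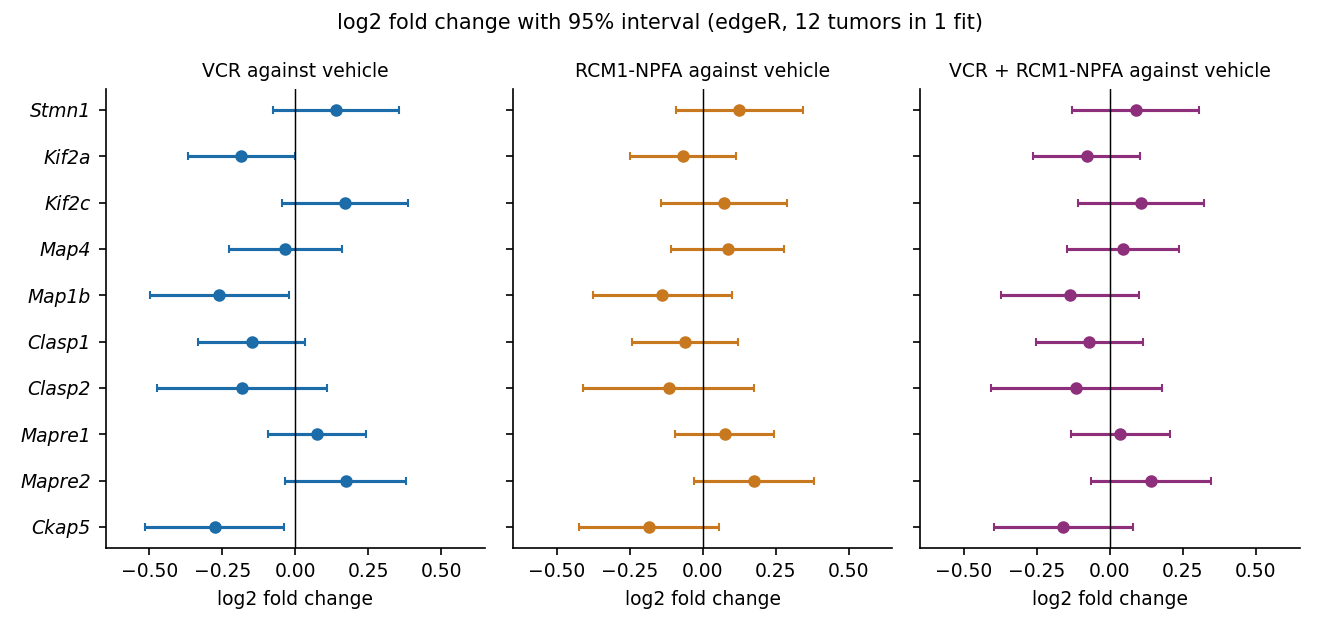
log2 fold change of each gene against vehicle (x axis) for VCR, RCM1-NPFA and the combination, with 95% intervals from edgeR fitted to all 12 tumors. After VCR the intervals of *Ckap5*, *Map1b* and *Kif2a* lay below 0 before adjustment over genes, and after RCM1-NPFA and the combination all 10 intervals spanned 0.

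Transcript length moved with the VCR comparison across all genes. Genes with an effective length under 1500 bases had a median log2 fold change of 0.14 (4164 genes), and those of 6000 bases and over had one of -0.22 (2025 genes). The same medians were 0.05 and -0.14 for RCM1-NPFA against vehicle, and 0.06 and -0.10 for the combination against vehicle. Of the 10 genes, *Stmn1* was the shortest at 898 bases, and *Map1b* (11686 bases), *Clasp1* (7477), *Mapre1* (7158) and *Ckap5* (6491) were the longest. The difference between long and short genes was not shared by all tumors of a group: on the log2 scale, relative to the mean of the 12 tumors, long genes stood above short ones by 0.33 in m1 and 0.24 in m2 but lay at -0.015 in m3, and after VCR they were at -0.25 in m4, -0.30 in m5 and -0.011 in m6.

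Each gene was therefore set beside genes of like length (up to 25% longer, or shorter by the same factor). *Ckap5* at -0.28 lay above 34.6% of 1918 such genes, whose median was -0.19, and *Map1b* at -0.26 lay above 42.8% of 423 genes with a median of -0.21. *Stmn1* at 0.14 lay near the median of 0.13 of 1376 short genes. *Mapre1* had a log2 fold change of 0.07 where 1571 genes of its length had a median of -0.20, and it lay above 81.0% of them. *Kif2a* at -0.19 lay above 26.3% of 4108 genes with a median of -0.04.

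When each tumor's length trend was taken out of the fit, the log2 fold change after VCR became -0.17 for *Ckap5* (edgeR adjusted p = 0.346), -0.13 for *Map1b* (0.499) and -0.09 for *Stmn1* (0.658), while *Kif2a* stood at -0.20 (0.244) and *Mapre1* at 0.18 (0.229). None of the 10 passed the threshold, against 0.528% of all tested genes. This fit was added after the trend had been seen. Adult muscle fiber genes also stood higher in every VCR-treated tumor than in every vehicle-treated tumor. So did the sums of 8 endothelial genes (144 to 204 CPM after vehicle and 213 to 289 after VCR), 6 fibroblast genes (79.8 to 124 and 134 to 201 CPM) and 10 myoblast genes (191 to 271 and 402 to 697 CPM). This was not particular to VCR. After the combination each of these sums, that of adult muscle fiber genes included, also stood above every vehicle-treated tumor. For the myoblast genes the gap was narrow (271.3 CPM at the lowest against 270.5 at the highest after vehicle). After RCM1-NPFA only the endothelial sum did so (207 to 254 CPM). Genes of the myoblast list did not all move alike. *Des* was at 10, 7.76 and 11.4 CPM in m1, m2 and m3 and at 197, 429 and 134 CPM in m4, m5 and m6. *Myf5* was at 52.6, 69.8 and 67.2 CPM and at 58.8, 54.1 and 67.2 CPM in the same tumors. The part of muscle, endothelial, fibroblast and myoblast cells in the levels of the 10 genes was not tested. A further fit left out m5 and m9, the tumors with the highest sums of adult muscle fiber genes. The log2 fold changes after VCR were then -0.31 for *Ckap5*, -0.27 for *Map1b* and -0.20 for *Kif2a*. In the same fit *Stmn1* went from 0.14 to 0.06, *Kif2c* from 0.17 to 0.08 and *Map4* from -0.03 to -0.10.

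**Figure D3:**
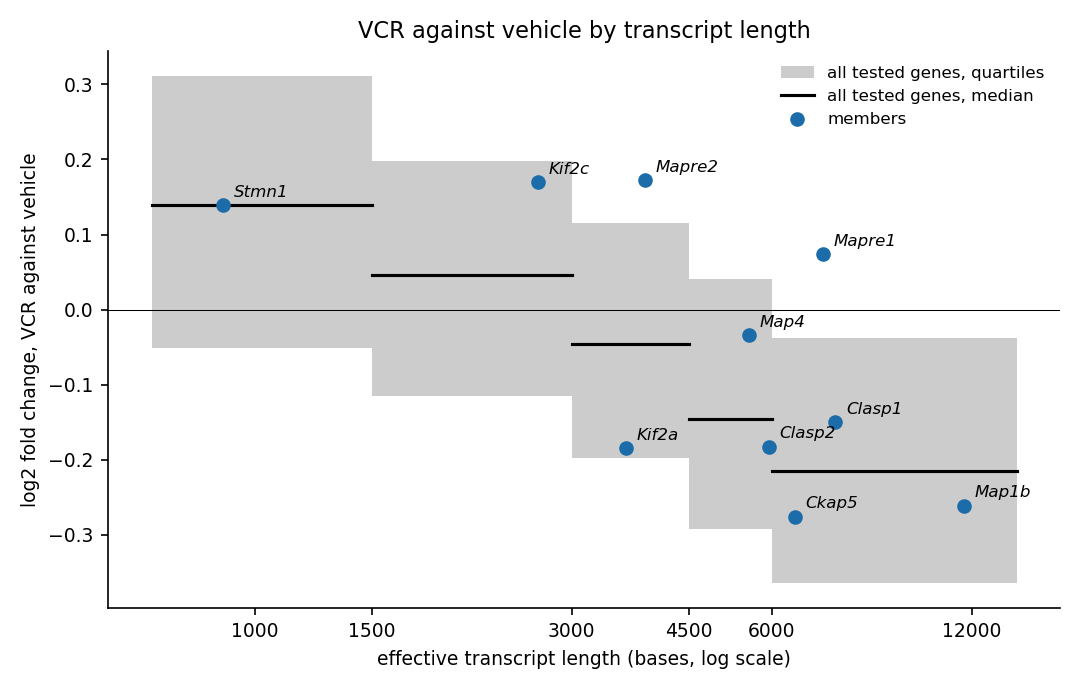
log2 fold change after VCR against effective transcript length (log axis). Grey boxes are the quartiles and black lines the medians of all tested genes in 5 length bins, the outer of which are open-ended, and blue points are the 10 genes. *Mapre1* and *Mapre2* lay above the quartile box of their bin, *Kif2a* near its lower edge and *Ckap5*, *Map1b*, *Clasp1* and *Clasp2* inside it.

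RCM1-NPFA was compared with vehicle next. None of the 10 genes passed the threshold (0 of 10), against 0% of all tested genes in edgeR, and 0 had an unadjusted p under 0.05 against 9.78% of all tested genes. DESeq2 called 0 of the 10 against 1.52% of the genes it tested, and limma-voom 0 against 0%. Log2 fold changes ran from -0.18 for *Ckap5* to 0.18 for *Mapre2*, with edgeR adjusted p-values of 0.579 to 0.864 and 95% intervals within folds of 0.746 and 1.30. *Mapre2* was at 40.0, 38.2 and 37.4 CPM in the vehicle-treated tumors and at 39.6, 44.9 and 46.3 CPM in m7, m8 and m9, and the groups overlapped through m7. Groups overlapped for all 10 genes, where 11.4% of all tested genes had groups that did not.

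The mRNA of *Foxm1* itself was at 139, 168 and 143 CPM after vehicle and at 148, 179 and 167 CPM after RCM1-NPFA. The authors describe RCM1 as acting on the FOXM1 protein, which leaves the nucleus and is degraded. The mRNA level is therefore no measure of that inhibition. *Kif2c*, a gene expressed mostly in dividing cells, was at 66.7, 74.3 and 62.9 CPM in m7, m8 and m9, with a log2 fold change of 0.07 ± 0.10 (SE) against vehicle. *Stmn1* was at 184, 229 and 189 CPM in the same tumors, with a log2 fold change of 0.13 ± 0.10 (SE). Both genes were highest in m8 of that group, as were *Foxm1* and *Mki67* (594 CPM in m8, against 446 and 514 CPM in m7 and m9).

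After VCR + RCM1-NPFA, 0 of 10 genes passed the threshold against vehicle, beside 0% of all tested genes in edgeR, and 0 had an unadjusted p under 0.05 against 7.3% of all tested genes. DESeq2 called 0 of the 10 against 0.362% of the genes it tested, and limma-voom 0 against 0%. Log2 fold changes ran from -0.16 for *Ckap5* to 0.14 for *Mapre2*, with edgeR adjusted p-values of 0.757 to 0.934 and 95% intervals within folds of 0.754 and 1.27. *Ckap5* was at 171, 158 and 138 CPM in m10, m11 and m12, with m10 and m11 inside the range of the vehicle-treated tumors (148 to 193 CPM) and m12 below it. *Map1b* was at 120, 106 and 91.4 CPM, so that m12 lay at the level of the lowest VCR-treated tumor and m10 above m1. Groups overlapped for all 10 genes, where 12.6% of all tested genes had groups that did not. The 3 comparisons share the vehicle-treated tumors, and the log2 fold changes of *Ckap5* (-0.28, -0.18 and -0.16), *Map1b* (-0.26, -0.14 and -0.14) and *Mapre2* (0.17, 0.18 and 0.14) for VCR, RCM1-NPFA and the combination are set side by side with that in mind. In the same order, genes of like length had medians of -0.19, -0.12 and -0.08 for *Ckap5* and -0.21, -0.15 and -0.11 for *Map1b*. Those for *Mapre2* were -0.06, -0.02 and -0.02.

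The combination was also compared with each drug alone. Against VCR, the log2 fold changes of the 10 genes ran from -0.06 for *Kif2c* to 0.12 for *Map1b*, with 95% intervals within folds of 0.825 and 1.29. Against RCM1-NPFA, they ran from -0.04 for *Map4* to 0.03, with 95% intervals within folds of 0.818 and 1.23. None of the 10 passed the threshold in either comparison, against 0% of all tested genes in each, and the lowest edgeR adjusted p was 0.859 and 1.00. At an unadjusted p under 0.05 there were 0 in each, against 5.26% and 2.07% of all tested genes, and DESeq2 and limma-voom called 0 against 0% of the genes they tested in both. Groups overlapped for all 10 genes in both, where 12.9% and 5.88% of all tested genes had groups that did not.

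The interaction of the drugs asks whether VCR acted differently with RCM1-NPFA than without it. None of the 10 genes passed the threshold in edgeR, against 0% of all tested genes, and 0 had an unadjusted p under 0.05 against 13.8%. DESeq2 called 0 of the 10 against 2.85% of the genes it tested, and limma-voom 0 against 0%. The term was highest for *Ckap5*, at 0.30 ± 0.15 (SE) on the log2 scale with a 95% interval of -0.04 to 0.64 (unadjusted p = 0.0761, adjusted p = 0.409), and lowest for *Mapre2* at -0.21 ± 0.13. The term also moved with length, with medians of -0.15 for genes under 1500 bases and 0.25 for those of 6000 bases and over. Genes of like length to *Ckap5* had a median of 0.22. Without each tumor's length trend *Ckap5* stood at 0.16 and *Kif2a* was highest at 0.19. *Mapre1* was then lowest at -0.26, with a 95% interval of -0.50 to -0.02, against -0.11 with the trend left in. *Mapre1* passed the threshold in neither fit. Averaged over RCM1-NPFA, VCR-given tumors differed from VCR-free tumors by log2 fold changes of -0.13 for *Map1b* to 0.10 for *Kif2c*, with a lowest edgeR adjusted p of 0.552, and 0 of 10 passed the threshold against 0% of all tested genes. At an unadjusted p under 0.05 there were 0, against 10.5% of all tested genes, and DESeq2 called 0 against 1.17% of the genes it tested and limma-voom 0 against 0%.

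Across the 12 tumors, the genes were compared in pairs by the correlation of their log2(CPM + 0.1). Of 45 pairs, 6 had a Pearson's r with an adjusted p under 0.05 by permutation, all positive. *Stmn1* followed *Kif2c* (r = 0.836, adjusted permutation p = 0.0125; rho = 0.608, adjusted permutation p = 0.229). The relation stood at r = 0.757 when the 2 tumors with the most outlying *Stmn1* values were left out, at 0.826 within groups and at 0.652 after each tumor's length trend was removed.

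*Ckap5* followed *Clasp2* (r = 0.833, adjusted permutation p = 0.0125; rho = 0.846, adjusted permutation p = 0.0432), and this was the only pair past 0.05 by both measures. It stood at r = 0.680 without the 2 farthest tumors, 0.831 within groups and 0.652 after removal of the length trend. *Map1b* followed *Ckap5* (r = 0.831, adjusted permutation p = 0.0125; rho = 0.734, adjusted permutation p = 0.163), with r = 0.661 without the 2 farthest tumors, 0.729 within groups and 0.611 without the length trend. All 3 genes are long. *Ckap5* and *Clasp2* were highest in m1 and m2 and *Map1b* in m2 and m10, and m1, m2 and m10 were the tumors in which long genes stood highest against short ones.

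*Map1b* and *Kif2a*, both shown above with their start-site windows, also moved together (r = 0.762, adjusted permutation p = 0.0355; rho = 0.636, adjusted permutation p = 0.224). Their r was 0.491 without the 2 farthest tumors, 0.630 within groups and 0.846 without the length trend. *Clasp1* and *Clasp2* had r = 0.817 (adjusted permutation p = 0.0125; rho = 0.664, adjusted permutation p = 0.192), which was 0.654 without the 2 farthest tumors, 0.795 within groups and 0.216 without the length trend. *Mapre1* and *Kif2c* had r = 0.770 (adjusted permutation p = 0.0432; rho = 0.692, adjusted permutation p = 0.177), with 0.529, 0.778 and 0.553 in the same order. The lowest r was that of *Map1b* and *Mapre2*, at -0.667 (adjusted permutation p = 0.0982; rho = -0.538, adjusted permutation p = 0.285), and -0.601 without the 2 farthest tumors. *Map4* had no r beyond ± 0.245 with any of the other 9 genes. Each correlation pooled the tumors of all 4 groups.

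**Figure D4:**
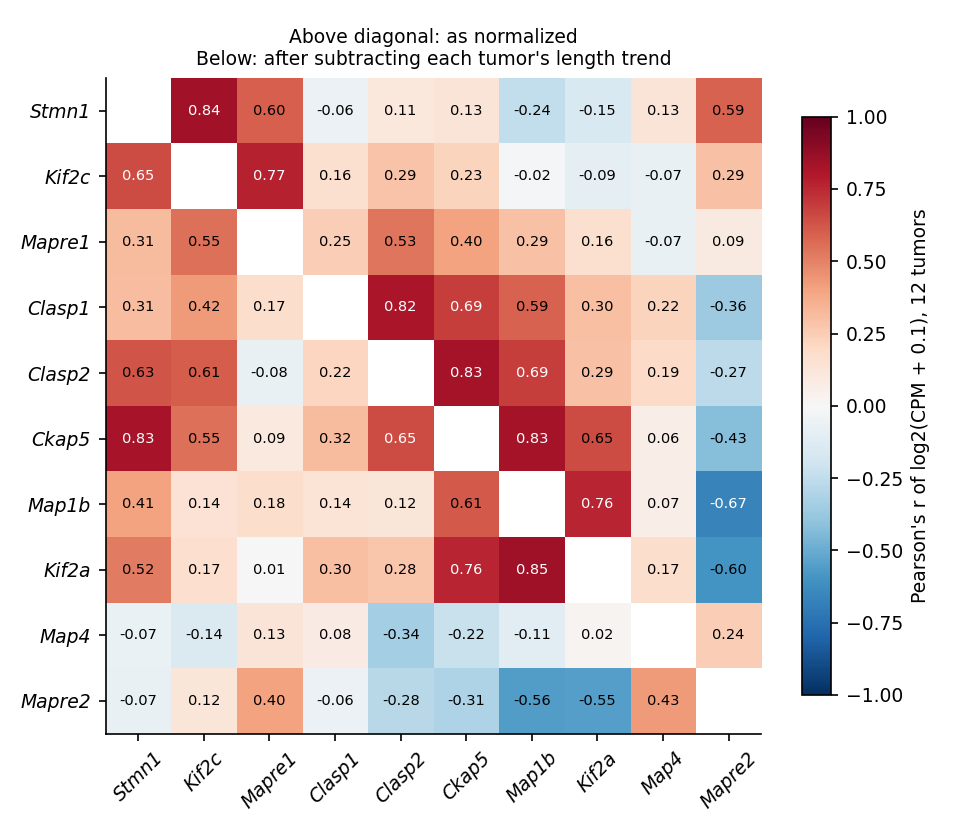
Pearson's r of log2(CPM + 0.1) over 12 tumors for each pair of the 10 genes, as normalized (above the diagonal) and after each tumor's length trend was subtracted (below it). The r of *Clasp1* and *Clasp2* went from 0.82 to 0.22 and that of *Map1b* and *Kif2a* from 0.76 to 0.85.

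Among 14033 genes with a mean of at least 1 CPM, the 2 most like each of the 10 were sought, as a description with no test. *Ckap5* was most like *Top2a*, the mitotic topoisomerase (r = 0.947, rho = 0.930 over 12 tumors), which was at 777, 881 and 611 CPM after vehicle and 584, 632 and 675 CPM after VCR, and then *Alms1* (r = 0.942). The part of cycling cells in the levels of *Ckap5* was not tested. *Stmn1* was most like *Gins4*, a subunit of the replicative helicase complex (r = 0.925), and the chromokinesin *Kif22* (r = 0.918). *Kif2c* was most like *Epb41l4a* (r = 0.890) and *Kif23*, a kinesin of the central spindle (r = 0.885). *Map1b* was most like *Pdzd8* (r = 0.957) and *Wapl*, which releases cohesin (r = 0.948), and *Kif2a* like *Eif2s3x* (r = 0.938) and *Wdr3* (r = 0.936).

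*Clasp2* was most like *Herc2* (r = 0.947, and 0.548 without the length trend) and *Rnf24* (r = 0.933), and *Clasp1* like *Fam186b* (r = 0.919, and 0.295 without the length trend) and *Sptbn1* (r = 0.906). *Mapre1* was most like *Snrpb2*, whose r of 0.916 became -0.01 without the length trend, and the cadherin *Cdh2* (r = 0.900, and 0.677 without it). *Mapre2* was most like the calcium pump *Atp2a3* (r = 0.909) and *Rnf113a2* (r = 0.906), and *Map4* like *Akap6* (r = 0.890) and *Nsun3* (r = 0.850). Genes were searched for the highest r, so these values are high by choice.

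The transcripts behind each gene were compared by the share of the gene's TPM that kallisto assigned to them. These shares are estimates, since transcripts of one gene share most of their sequence. *Stmn1* and *Mapre1* have 1 transcript each in the data. In *Kif2c*, *Mapre2* and *Ckap5*, 1 transcript carried 99.2%, 97.4% and 95.7% of the TPM on average. The other genes were mixtures, with a leading transcript at 52.8% on average in *Kif2a*, 59.5% in *Clasp1*, 61.3% in *Map4*, 63.3% in *Clasp2* and 86.1% in *Map1b*.

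*Map4* has 50 transcripts in the data. NM_001205330.1 (5776 bases) held 50.3% to 70.0% of its TPM, and NM_001205332.1 (5556 bases) held 7.23%, 11.6% and 15.7% in m1, m2 and m3, 15.2%, 25.1% and 16.9% in m4, m5 and m6, 15.5%, 11.3% and 27.5% in m7, m8 and m9, and 14.3%, 17.3% and 10.4% in m10, m11 and m12. The tumors with the highest shares were m9 and m5, which also had the highest sums of adult muscle fiber genes (22134 and 14828 CPM). Outside these tumors the shares ran from 7.23% to 17.3%. Whether muscle fibers account for that share was not tested.

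*Clasp2* shifted between NM_001081960.1 (5627 bases) and the longer NM_001114347.1 (6369 bases). The longer transcript held 43.6% and 50.2% of the TPM in vehicle-treated tumors m1 and m2 but 7.59% in m3, 0.836%, 0.00% and 16.3% in m4, m5 and m6, 12.7%, 4.35% and 6.95% in m7, m8 and m9, and 25.3%, 3.27% and 4.71% in m10, m11 and m12. It was highest in m2, m1 and m10, the tumors in which long genes stood highest against short ones, at 0.24, 0.33 and 0.13 on the log2 scale, and lowest in m5 and m4, where they stood lowest. *Clasp1* varied as widely, with NM_001293301.1 (7651 bases) between 31.2% in m3 and 83.9% in m2, and XM_011248108.1 (7618 bases) between 5.03% in m2 and 57.7% in m3. A further *Clasp1* transcript, NM_001359346.1 (7626 bases), was at 0.0105% or less in the 3 vehicle-treated tumors and at 0.921% to 17.1% in the 9 treated tumors. It was singled out after its values were seen, as the 1 of 14 transcripts of the mixed genes, those with a mean share of at least 5%, whose vehicle-treated tumors lay apart from all others. The same was not counted over the transcripts of all genes, so that 1 of 14 has no share beside it. In m10 and m11 the transcript held only 1.15% and 0.921%, and kallisto divided these reads among transcripts of nearly the same length. *Kif2a* was divided between NM_001145779.1 at 40.8% to 60.1% and NM_001378938.1 at 30.2% to 52.2%.

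**Figure D5:**
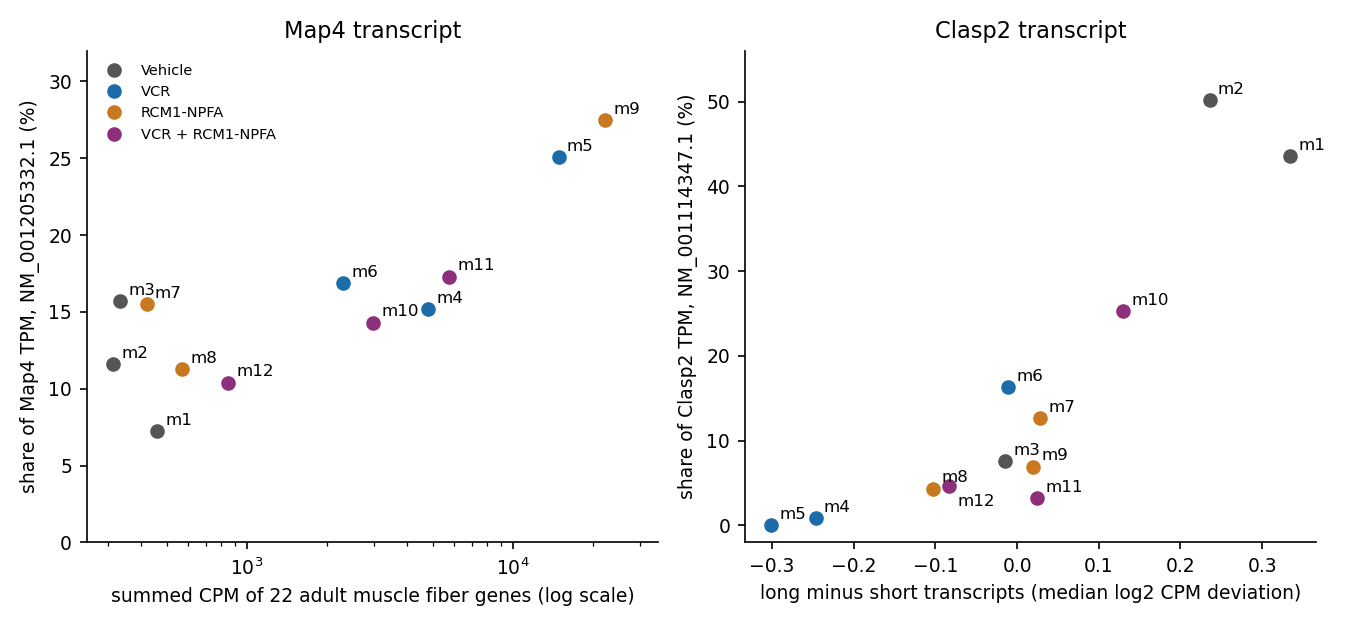
Left, share of *Map4* TPM assigned to NM_001205332.1 against the summed CPM of 22 adult muscle fiber genes (log axis). Right, share of *Clasp2* TPM assigned to NM_001114347.1 against the difference of long and short genes in the same tumor. Points are tumors, colored by group; m5 and m9 stand highest on the left, and m1 and m2 on the right.

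The 10 genes belong to a larger group of microtubule regulators, and 89 further genes were listed by role. Of these, 83 were tested, while *Stmn3*, *Stmn4*, *Map7d2*, *Map9*, *Dcx* and *Kif2b* had too few counts. After VCR, 7 of the 83 (8.43%) passed the threshold against 5.54% of all tested genes, 5 higher and 2 lower, and 27 (32.5%) had an unadjusted p under 0.05 against 22.1%. None of the 83 had an adjusted p under 0.05. Of the 7 genes, 0 passed the threshold when m2, m4 or m5 was left out, where 0 of all tested genes did. Without m11, 0 passed it beside 1 of all tested genes, and without m5 and m9 together 0 beside 253. There was 1 without m1 (beside 281), and 3 without m10 (beside 522) or m12 (beside 243). In edgeR on only the groups compared 1 passed it, beside 465 of all tested genes. With DESeq2 7 passed it, against 14.3% of the genes it tested, and with limma-voom 6, against 3.86%. The 7 genes were 2 of 8 mitotic kinases, 1 of 7 tubulin folding cofactors, 2 of 17 structural MAPs, 1 of 19 further tip trackers and 1 of 9 spindle MAPs. None of the kinesins, severing enzymes, minus-end proteins and tubulin modifiers tested passed it, nor did the 1 further stathmin tested. The log2 fold change of that stathmin was 1.29 after VCR, 1.24 after RCM1-NPFA and 0.80 after the combination, and its interaction term was -1.74. The terms for VCR, RCM1-NPFA and the interaction had an unadjusted p under 0.05 in edgeR, and that for the combination did not. Such p-values were held by 22.1%, 9.78% and 13.8% of all tested genes for VCR, RCM1-NPFA and the interaction. The level of this stathmin in each tumor is not given here, and whether its counts lay near the floor was not examined.

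*Aurka*, the Aurora kinase of spindle poles, was at 47.7, 50.1 and 42.9 CPM after vehicle and 57.9, 73.3 and 63.3 CPM after VCR, with a log2 fold change of 0.47 ± 0.10 (SE; edgeR adjusted p = 0.0725). *Tbcb*, a cofactor of tubulin folding, rose by 0.44 ± 0.08 (adjusted p = 0.0651), and the mitotic kinase *Plk1* by 0.36 ± 0.08 (adjusted p = 0.0712). *Dst*, a cytoskeletal linker, was at 232, 215 and 186 CPM after vehicle and 153, 177 and 167 CPM after VCR, with a log2 fold change of -0.35 ± 0.09 (adjusted p = 0.0856), and *Numa1*, which gathers microtubule minus ends at spindle poles, one of -0.30 ± 0.08 (adjusted p = 0.0857). The other genes past the threshold, *Map7d1* and *Gtse1*, both higher by 0.33, were named after their values were seen. The genes that were higher were 780 to 3096 bases long, and those that were lower 16592 and 7090 bases. Without the length trend none of the 7 passed the threshold, with adjusted p-values of 0.129 to 0.179, and the log2 fold changes became 0.32 for *Aurka*, 0.20 for *Tbcb*, 0.24 for *Plk1*, 0.28 for *Map7d1*, 0.24 for *Gtse1*, -0.23 for *Dst* and -0.19 for *Numa1*. In the other 6 comparisons 0 of the 83 passed it, and at an unadjusted p under 0.05 there were 20 (24.1%, against 9.78% of all tested genes) for RCM1-NPFA and 9 (10.8%, against 7.3%) for the combination against vehicle. There were 4 (4.82%, against 5.26%) and 0 (against 2.07%) for the combination against VCR and RCM1-NPFA, 19 (22.9%, against 13.8%) for the interaction and 8 (9.64%, against 10.5%) for VCR-given tumors.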

How the data were processed

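Bulk RNA-seq of 12 tumors was analysed, 3 in each of 4 groups taken from the sample titles; each tumor counted as 1 replicate, and the labels and methods give no batch. Per the labels, the authors made poly-A libraries and quantified them with kallisto on GRCm38 (version not given in the sources used here), with a stranded kit named for libraries called non-stranded. The authors deposited for each of 120299 RefSeq transcripts an estimated count, unnormalized and not whole, a TPM value, and transcript and effective lengths.

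Here 120289 transcripts were matched to 38894 genes, values were summed per gene and the estimated counts were rounded. Genes were kept by filterByExpr (minimum count 10), scaled by TMM and tested with edgeR 4.0.16 in R 4.3.3, quasi-likelihood, all 12 tumors in one fit of 4 groups, with p-values adjusted over all genes by Benjamini-Hochberg at 0.1. SE is the log2 fold change divided by the root of F. DESeq2 1.42.0 and limma 3.58.1 were alternatives; DESeq2 was also fitted to only the groups compared. Depth was 29342195 to 32108055 estimated counts, and members had 889 to 11013 per tumor. For single genes, log2(CPM + 0.1) was compared by an exact permutation test (two-sided), and correlations by 100000 permutations (Python 3.11.15, scipy 1.17.1). Length trends were fitted per tumor by splines with 5 degrees of freedom. The script was tested on simulated data.

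The members and lists were chosen with earlier results of these data known. Named genes are the 10 members, up to 3 genes of the wider list with the largest change in each direction among those past the threshold, and the 2 genes most alike to each member. Of marker lists, neuron, Schwann, keratinocyte, adipocyte, leukocyte, endothelial and fibroblast genes summed to 3.00 to 4.96, 13.6 to 25.3, 5.05 to 6.58, 6.62 to 134, 2319 to 3399, 144 to 289 and 79.8 to 201 CPM, and the 10 myoblast genes to 191 to 805 CPM. Mapre2 has no sequence shown, and protein sequences were not used here.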

Additional observations from a re-analysis of the deposited data

How the results depend on the processing

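Only 3 tumors per group stood behind each value, and p-values measure the spread between these tumors. No paired analysis was possible because the tumor numbers m1 to m12 are not shared between groups. The number of the 10 genes called after VCR was 0, and 1 (*Ckap5*) with DESeq2 on all 12 tumors; leaving out 1 tumor at a time gave 0 to 1, the 1 being *Ckap5* without m3. In the other 6 comparisons it was 0 under every alternative run. Log2 fold changes of the 3 comparisons with vehicle, with 360 values without 1 tumor and 300 under other settings, kept their sign and call in 352 and 295. Signs turned with length splines for *Stmn1* (VCR -0.090, combination -0.014), *Map4* (VCR 0.038) and *Clasp1* (RCM1-NPFA 0.012). They also turned when 1 tumor was left out, over ranges of -0.097 to 0.017 for *Map4* after VCR, -0.13 to 0.0031 for *Clasp1*, -0.15 to 0.0042 for *Kif2a* and -0.012 to 0.13 for *Kif2c* after RCM1-NPFA, and -0.029 to 0.077 for *Map4* and -0.036 to 0.094 for *Mapre1* after the combination. Counts over all genes moved far more: 975 for VCR became 2214 with DESeq2, 1421 with DESeq2 on only these groups, 648 without a filter, 465 in edgeR on only these groups, 9 at 0.05, 93 with length splines, 253 without m5 and m9, and between 0 (leaving out m2, m4 or m5) and 1998 (leaving out m6). Counts of 0 became 278 for RCM1-NPFA, 60 for the combination, 473 for the interaction and 160 for VCR-given tumors with DESeq2 on all tumors, and 34, 252, 40 and 19 for RCM1-NPFA, the combination, and the combination against VCR and RCM1-NPFA with DESeq2 on only the groups compared. In edgeR they became 138 for the combination and 268 for VCR-given tumors without m5 and m9, and leaving out 1 tumor gave up to 8, 44, 1 and 341 for RCM1-NPFA, the combination, the interaction and VCR-given tumors. The length splines, the fit without m5 and m9 and the length-corrected correlations were chosen after seeing the data. Overlap of groups does not depend on the pseudocount, so the 1 gene without overlap could not change with it. The lowest exact permutation p of each comparison was the same with a pseudocount of 0.1 and of 1. The cause of these shifts was not tested.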
